A study of Rattus norvegicus with 16 samples.

Results

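Neutrophil granule genes were followed by maturation stage in bone marrow of rats given N-nitrosodiethylamine (NDEA), a nitrosamine that alkylates DNA after oxidation in the liver, with liver as the contrast tissue. The members were the 10 genes Mpo, Elane, Prtn3, Ctsg, Camp, Ltf, Lcn2, Mmp8, S100a8 and S100a9, picked by gene name from the 32623 gene records of the deposited count table, and all 10 names were found once. All groups came from female Big Blue rats, which carry a transgenic vector with the cII and lacI reporter genes for mutation assays; the animals arrived at 6 weeks of age and had 1 week to settle before dosing. The 4 groups were marrow NDEA (10 mg/kg per day by gavage for 28 days), marrow control (0 mg/kg per day), liver NDEA and liver control, with 4 libraries each, with tissues collected 3 days after dosing ended. Per dose 6 rats were treated, housed 3 to a cage, so liver and marrow libraries may share rats. The labels do not say which rat a library came from, so the p-values measure the spread between these libraries.

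Neutrophils fill their granules in waves while they mature in the marrow. Promyelocytes make the primary (azurophil) granule proteins, myelocytes and metamyelocytes make the secondary (specific) ones, and later stages make tertiary granule proteins and large amounts of cytosolic calcium-binding proteins. Because a wave of transcripts largely declines as the next begins, the transcripts of a granule gene mark mainly cells of some stages rather than all neutrophils. The waves overlap, so the mark is not exact. Here Mpo, Elane, Prtn3 and Ctsg were grouped as primary, Camp, Ltf and Lcn2 as secondary, and Mmp8, S100a8 and S100a9 as late. Mmp8 protein is known from human neutrophils as a content of specific granules, and S100a8 and S100a9 are cytosolic, so the late group is a time of transcription and not a granule type.

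Marrow libraries held 2162182 to 5705705 counts, marrow control 1 being the shallowest, and liver libraries held 5000844 to 6863592. The tissues matched their labels: Alb, the gene of serum albumin, had at most 2 counts in a marrow library and at least 353511 in a liver library, and alpha- and beta-globin genes took 17% to 22.1% of counts in marrow NDEA and 21.2% to 25.8% in marrow control. Libraries of 1 marrow group differed in ways that bear on the results below. The mitochondrially encoded share of counts was 11.3%, 8.37%, 15.16% and 15.78% in marrow NDEA 1 to 4, against 6.41%, 8.65%, 13.01% and 7.24% in marrow control 1 to 4. NDEA 4, NDEA 3 and control 3 thus had the highest shares, and NDEA 4 and NDEA 3 detected the fewest genes (9101 and 10144, against 10920 to 11699 in the other 6). The kit reads only the 3' end of polyadenylated transcripts, so counts do not scale with gene length and levels of different genes are set side by side as CPM, a gene's counts relative to its library's total on a common scale.

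In bone marrow, no granule gene passed the test between NDEA and control. By limma-voom with Benjamini-Hochberg adjustment over the 9239 genes tested, 0 of the 9 members with enough counts were called at an adjusted p under 0.05, beside a background of 0% of all genes. Of the other tools, limma-trend called 0 members, as did voom when libraries were weighted by quality. At an unadjusted p under 0.05 there were 3 members, Elane, Ctsg and Mmp8, where the background over all genes was 14.5%. For 0 of the 9 were all 4 NDEA libraries on one side of all 4 controls, against 5.6% of all tested genes (2.57% with NDEA higher and 3.03% with NDEA lower). The median log2 fold change was -0.67 for the 4 primary members, -0.35 for the 2 secondary members tested and 0.20 for the 3 late members, against -0.10 for all genes tested. The late median was the value of S100a8, between -0.50 for S100a9 and 0.99 for Mmp8. With 1 library left out it ran from -0.012 to 0.361.

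The order of levels in marrow was led by S100a8, at 8379 to 20960 scaled CPM over the 8 libraries (CPM after scaling between libraries by trimmed means of M values). S100a9 spanned 2097 to 5363 CPM, Camp 1790 to 2775, Mmp8 491 to 2271, Mpo 414 to 622, Prtn3 212 to 512, Elane 53.2 to 306, Ctsg 17.7 to 154 and Lcn2 6.54 to 30.5. S100a8 stood clear of S100a9, while every other pair of neighbours in this order overlapped between libraries. Together the members made up 1.82% to 3.08% of all counts in NDEA marrow and 1.84% to 2.46% in control marrow. Genes of the same stage differed in how steady they were. Among the primary genes, the highest of the 8 libraries was 1.5 times the lowest for Mpo, 2.41 times for Prtn3, 5.76 times for Elane and 8.72 times for Ctsg. Among the secondary genes it was 1.55 times for Camp and 4.66 times for Lcn2, and among the late genes 2.5 times for S100a8, 2.56 times for S100a9 and 4.62 times for Mmp8.

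**Figure D1:**
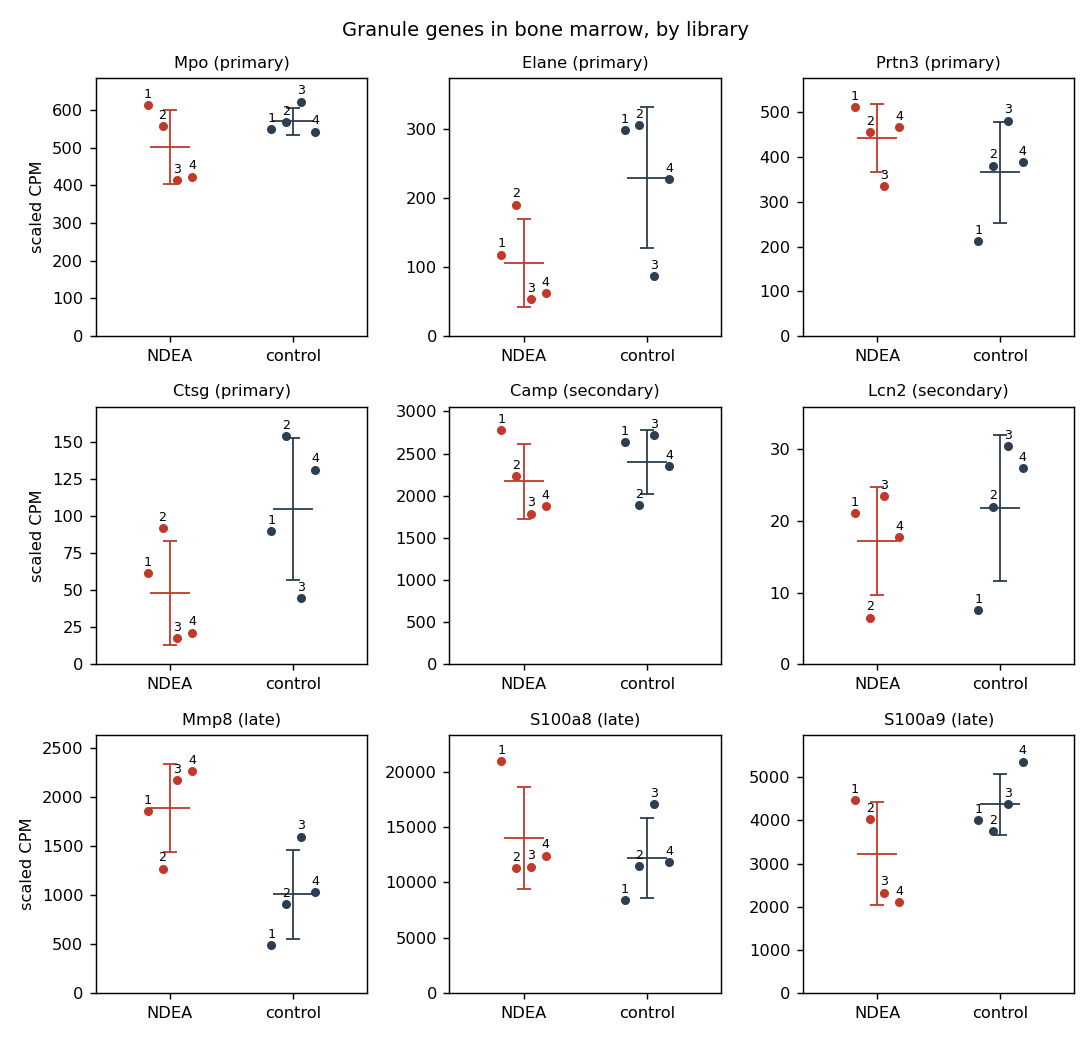
Scaled CPM of the 9 detected granule genes in marrow NDEA and marrow control libraries; points are libraries, numbered as in the labels, and bars show the mean ± SD of 4 libraries. In Elane, Ctsg and Mmp8 control 3 sits on the NDEA side of the other 3 controls, and in Mpo NDEA 3 and 4 lie below every control.

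Of the primary granule genes, Elane encodes neutrophil elastase, a serine protease that degrades bacterial proteins and matrix (ENSRNOG00000033685, chromosome 7, position 12638322 of the deposited table, whose build is not named). Elane stood at 118, 190.5, 53.2 and 61.9 CPM in NDEA 1 to 4, against 298, 306, 86.5 and 227 CPM in control 1 to 4. Its 2 lowest libraries were NDEA 3 and 4 and the next was control 3; 3 of the 4 controls lay above all NDEA libraries. The estimate was 0.454-fold (log2 fold change -1.14, SE 0.40, 95% interval -1.98 to -0.30; limma-voom adjusted p = 0.252).

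Ctsg, cathepsin G, is another serine protease of the same granules (ENSRNOG00000020647, chromosome 15, position 35111091). Ctsg stood at 61.6, 92.1, 17.7 and 21.6 CPM in NDEA 1 to 4, against 90.1, 154, 45.0 and 132 CPM in control 1 to 4. The pattern was that of Elane, with NDEA 3, NDEA 4 and control 3 lowest, and control 1 just under NDEA 2. Its estimate was -1.31 on the log2 scale (SE 0.46, 95% interval -2.28 to -0.35; limma-voom adjusted p = 0.252).

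Prtn3, proteinase 3, lies close to Elane on chromosome 7 (ENSRNOG00000029814, position 12643516) and encodes a protease closely related to elastase, but its order of libraries was another. Prtn3 stood at 512, 456, 336 and 467 CPM in NDEA 1 to 4, against 212, 381, 481.5 and 389 CPM in control 1 to 4. Control 3, low in Elane, was the highest control for Prtn3, and control 1, high in Elane, was the lowest library of all. The log2 fold change of Prtn3 was 0.31 (SE 0.25, 95% interval -0.22 to 0.83; limma-voom adjusted p = 0.557). Within a library, where no scaling between libraries enters, there were 0.23, 0.418, 0.158 and 0.132 Elane counts per Prtn3 count in NDEA 1 to 4, against 1.41, 0.804, 0.18 and 0.585 in control 1 to 4. Control 3 fell among the NDEA libraries in this ratio, and the other 3 controls lay above all 4. The sources used here do not state whether the counting used strand.

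Mpo encodes myeloperoxidase, the haem enzyme that makes hypochlorous acid from hydrogen peroxide (ENSRNOG00000008310, chromosome 10, position 75087892). It stood at 612.5, 558, 414 and 423 CPM in NDEA 1 to 4, against 549, 568, 622 and 543 CPM in control 1 to 4. The controls lay close together, and NDEA 3 and 4 were below them while NDEA 1 and 2 were within their range. The log2 fold change of Mpo was -0.21 (SE 0.21, 95% interval -0.65 to 0.24; limma-voom adjusted p = 0.652), and it was 0.03 without NDEA 3 and 4.

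**Figure D2:**
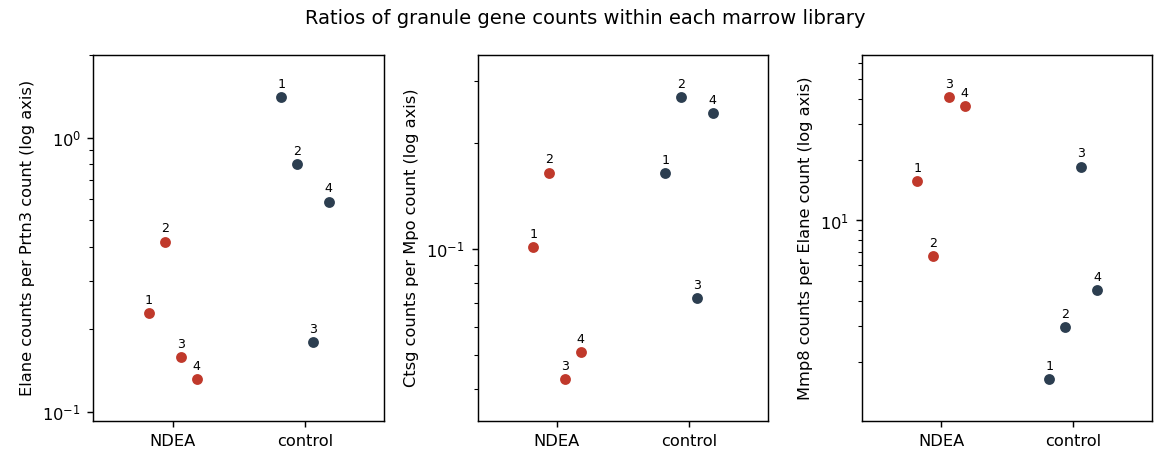
Counts of one granule gene per count of another within each marrow library, NDEA left and control right, on log axes; points are libraries with their number. Elane per Prtn3 and Ctsg per Mpo are lowest in NDEA 3, NDEA 4 and control 3, and Mmp8 per Elane is highest in the same 3 libraries.

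The promoters of Ctsg, Prtn3 and Mmp8 are printed because these genes of 1 lineage moved apart between the marrow libraries: NDEA 3 and 4 held the lowest Ctsg and the highest Mmp8 values, and Prtn3 was lowest in control 1. They run from 250 bases before to 50 bases after the gene start, 5′ to 3′ on the gene's strand, from RefSeq on build GRCr8, which held 8 of the 10 members; Elane and S100a8 were the others. C/EBP factors and PU.1 are transcription factors known to drive granule genes. Capitals mark matches on either strand to the C/EBP core TTGCNNAA, to the PU.1 core, which reads GAGGAA, and to the TATA box, written as TATAAA here; no matches in these windows overlapped.
Ctsg promoter, chr15:33907547-33907846, minus strand: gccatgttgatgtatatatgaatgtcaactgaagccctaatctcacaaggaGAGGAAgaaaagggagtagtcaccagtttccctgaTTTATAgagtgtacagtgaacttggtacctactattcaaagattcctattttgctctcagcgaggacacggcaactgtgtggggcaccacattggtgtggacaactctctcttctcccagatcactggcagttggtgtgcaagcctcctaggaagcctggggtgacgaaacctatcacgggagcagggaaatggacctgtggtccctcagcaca
Prtn3 promoter, chr7:10476147-10476446, minus strand: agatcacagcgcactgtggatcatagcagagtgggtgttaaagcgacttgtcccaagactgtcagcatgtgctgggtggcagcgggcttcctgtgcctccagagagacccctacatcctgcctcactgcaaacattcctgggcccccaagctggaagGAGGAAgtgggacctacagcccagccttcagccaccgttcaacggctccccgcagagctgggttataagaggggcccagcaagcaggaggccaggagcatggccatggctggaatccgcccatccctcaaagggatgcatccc
Mmp8 promoter, chr8:13008640-13008939, plus strand: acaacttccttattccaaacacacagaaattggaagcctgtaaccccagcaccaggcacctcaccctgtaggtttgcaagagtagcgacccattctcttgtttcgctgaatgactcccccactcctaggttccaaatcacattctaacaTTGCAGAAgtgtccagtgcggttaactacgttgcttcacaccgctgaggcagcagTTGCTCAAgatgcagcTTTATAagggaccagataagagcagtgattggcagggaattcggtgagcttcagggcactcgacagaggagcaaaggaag
The Mmp8 window held 2 C/EBP matches, starting at -101 and -46, and a TATA match on the opposite strand at -30. Those of Ctsg and Prtn3 each held 1 PU.1 match, at -199 and -93, and Ctsg also a TATA match on the opposite strand at -164; neither held the C/EBP core. Of 33469 rat promoters of this length, 10.6% held the C/EBP core, 27.6% the PU.1 core and 14.2% the TATA box. The matches describe these letters in these windows and are not shown to be bound.

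Of the secondary granule genes, Camp encodes the cathelicidin precursor, an antimicrobial peptide (ENSRNOG00000020733, chromosome 8, position 117930546). Camp stood at 2775, 2238, 1790 and 1877 CPM in NDEA 1 to 4, against 2633, 1888, 2724 and 2353 CPM in control 1 to 4. The highest library was NDEA 1, and the groups overlapped over most of their range. Its log2 fold change was -0.15 (SE 0.22, 95% interval -0.61 to 0.31; limma-voom adjusted p = 0.763), and its sign turned without NDEA 3 and 4 (0.06).

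Lcn2 encodes lipocalin 2, which withholds iron from bacteria by binding their siderophores (ENSRNOG00000013973, chromosome 3, position 11414186). Lcn2 was the scarcest member detected, at 21.1, 6.54, 23.5 and 17.8 CPM in NDEA 1 to 4, against 7.54, 22.03, 30.5 and 27.4 CPM in control 1 to 4. NDEA 2 and control 1 were low and the other 6 libraries similar. The log2 fold change was -0.54 (SE 0.47, 95% interval -1.51 to 0.44; limma-voom adjusted p = 0.585). It was -1.06 with the mitochondrial share as a covariate and -0.07 without NDEA 2. Ltf, lactoferrin, the main iron-binding protein of specific granules, had 0 counts in all 16 libraries (ENSRNOG00000031779, chromosome 8, position 119290416). A count of 0 allows up to 3 counts, or 0.526 to 0.683 CPM in an NDEA marrow library and 0.542 to 1.39 CPM in a control marrow library, counting error alone. Other listed genes also had 0 counts in all 16 libraries, among them, picked after their values were seen, Col1a2, whose partner chain Col1a1 averaged 2021 CPM in NDEA marrow and 3609 CPM in control marrow. Whether the annotation used for counting covered the 3' end of Ltf was not tested, so its 0 is not read as a lack of expression.

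Of the late genes, Mmp8 encodes neutrophil collagenase (ENSRNOG00000009907, chromosome 8, position 5768811) and had the largest estimate above 0 among the members. Mmp8 stood at 1857, 1271, 2178 and 2271 CPM in NDEA 1 to 4, against 491, 908, 1599 and 1030 CPM in control 1 to 4. NDEA 3 and 4 were highest and control 1 lowest, and the groups overlapped through control 3 alone, which exceeded NDEA 2. The estimate was 1.99-fold (log2 fold change 0.99, SE 0.30, 95% interval 0.37 to 1.62; limma-voom adjusted p = 0.247). Within libraries there were 15.7, 6.67, 40.9 and 36.7 Mmp8 counts per Elane count in NDEA 1 to 4, against 1.65, 2.96, 18.5 and 4.53 in control 1 to 4. The ratio thus spanned a wide range within each group as well as between them.

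S100a8 and S100a9 encode the subunits of calprotectin, which binds zinc and manganese and makes up much of the neutrophil cytosol, and they lie close together on chromosome 2 (ENSRNOG00000011557 at position 190073815 and ENSRNOG00000011483 at position 190097554). S100a8 stood at 20960, 11300, 11440 and 12440 CPM in NDEA 1 to 4, against 8379, 11510, 17120 and 11830 CPM in control 1 to 4. NDEA 1 stood far above the other 3 NDEA libraries, which lay within the range of the controls. The log2 fold change of S100a8 was 0.20 (SE 0.26, 95% interval -0.34 to 0.74; limma-voom adjusted p = 0.736), and -0.01 without NDEA 1. S100a9 stood at 4479, 4026, 2327 and 2097 CPM in NDEA 1 to 4, against 4005, 3750, 4375 and 5363 CPM in control 1 to 4. NDEA 3 and 4 were below every control, and NDEA 1 and 2 were within the control range. Its log2 fold change was -0.50 (SE 0.26, 95% interval -1.04 to 0.04; limma-voom adjusted p = 0.372), and -0.04 without NDEA 3 and 4. Although their proteins pair, S100a8 counts per S100a9 count were 4.68, 2.81, 4.91 and 5.93 in NDEA 1 to 4, against 2.09, 3.07, 3.91 and 2.21 in control 1 to 4.

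The estimates for Elane, Ctsg and Mmp8 moved with the marrow libraries that entered the fit. Without control 3, limma-voom called these 3 of the 9 members: Mmp8 rose (log2 fold change 1.24, adjusted p = 0.0171), and Elane and Ctsg fell (-1.57, adjusted p = 0.0168, and -1.69, adjusted p = 0.0275). That fit called 323 of 9096 genes in all, and leaving out any other single marrow library called 0 members. Without NDEA 3 and 4 the estimates shrank to -0.46 for Elane, -0.35 for Ctsg and 0.72 for Mmp8. Without all 3 libraries of high mitochondrial share, an alternative chosen after the data were seen, they were -0.89, -0.74 and 0.95, with limma-voom adjusted p of 0.122, 0.242 and 0.108. With that share as a covariate they were -0.22, -0.29 and 0.43 (adjusted p = 0.999 each). Over all alternatives the limma-voom or limma-trend adjusted p ran from 0.00836 to 0.999 for Elane, 0.0172 to 0.999 for Ctsg and 0.0171 to 0.999 for Mmp8. The mitochondrial share was higher in 3 of 4 NDEA libraries than in 3 of 4 controls, and its part in the member values was not tested.

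**Figure D3:**
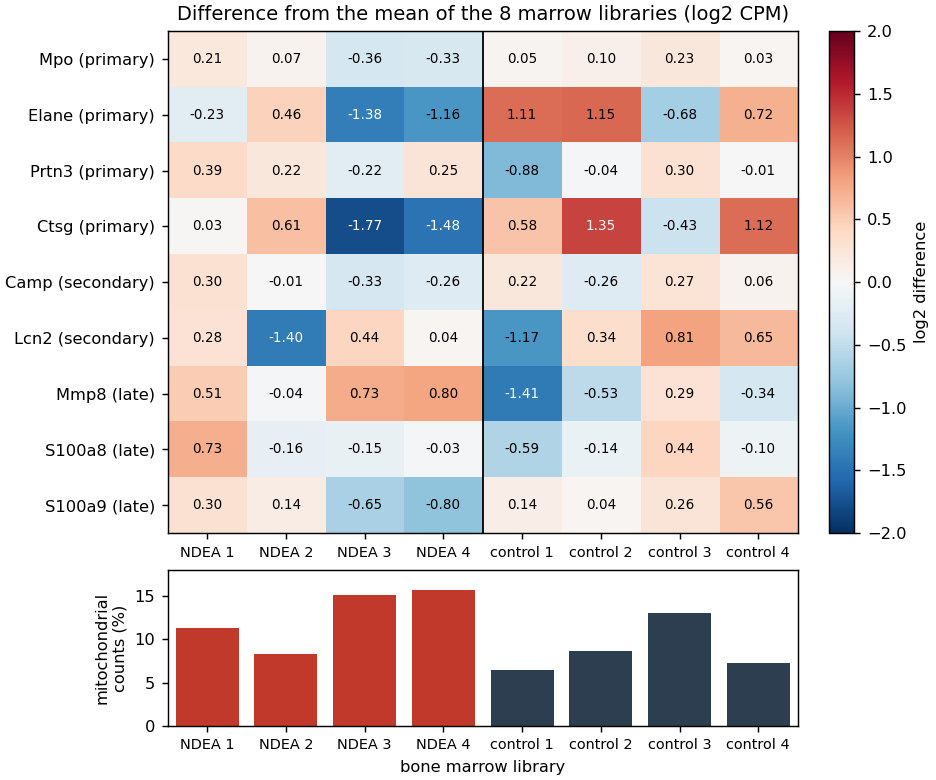
Upper panel, log2 CPM of each granule gene in each marrow library minus its mean over the 8 libraries, with the value in each cell; lower panel, mitochondrially encoded share of counts in percent. Elane and Ctsg are below their mean in NDEA 3, NDEA 4 and control 3, the 3 libraries with the highest share, and Mmp8 is above its mean there.

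**Figure D4:**
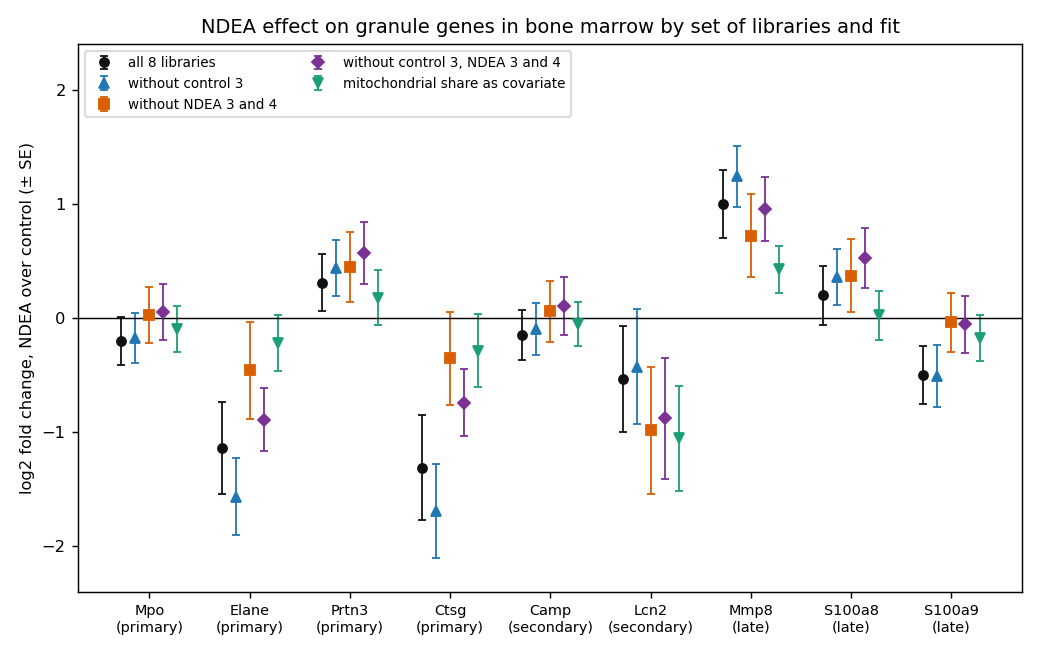
Log2 fold change (NDEA over control, with its SE, from limma-voom) of the 9 granule genes in marrow with all 8 libraries, without control 3, without NDEA 3 and 4, without these 3, and with a covariate for the mitochondrial share. Elane, Ctsg and Mmp8 keep their sign in all 5 fits, at -0.22 to -1.57, -0.29 to -1.69 and 0.43 to 1.24, and Mpo and Camp lie near 0.

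Other genes of the same stages were read from lists, 0 of whose tested genes were called in marrow. Of 10 tested companions of the primary granule, 9 had an estimate below 0 (median log2 fold change -0.97), as had 5150 of all 9239 genes tested, and 6 had an unadjusted p under 0.05, where the background was 14.5%. The most abundant were RatNP-3b and Np4, alpha-defensins, and Lyz2, lysozyme, also made by monocytes. RatNP-3b averaged 8740 ± 2102 CPM in NDEA marrow and 11120 ± 602 CPM in control marrow (SD, n = 4 each; log2 fold change -0.38), Np4 1822 ± 766.5 and 3244 ± 532 CPM (-0.92), and Lyz2 1195 ± 685.5 and 2660 ± 1022 CPM (-1.20), with limma-voom adjusted p of 0.418, 0.247 and 0.247. Chosen after their values were seen, Defa5, a further defensin, stood at 849, 984, 404 and 270 CPM in NDEA 1 to 4, against 1276, 1659, 914 and 1529 CPM in control 1 to 4. Serpinb1a, an inhibitor of the granule proteases, stood at 124, 176, 82.3 and 57.3 CPM in NDEA 1 to 4, against 198, 250, 127 and 275 CPM in control 1 to 4. In both genes control 3 was the lowest control, as it was for Np4 (2631 CPM) and Lyz2 (1153 CPM). For Np4 and Lyz2 the lowest marrow libraries were NDEA 3 and 4. The defensins are near copies of each other, so reads may be split between them.

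For the secondary granule 7 of 11 tested estimates were above 0 (median 0.17), led by Ngp, a cathelicidin relative, at 4348 ± 890 CPM in NDEA and 4708 ± 500 CPM in control marrow (SD, n = 4 each; log2 fold change -0.13). Cybb, the catalytic subunit of the NADPH oxidase, had a log2 fold change of 0.21, and Mcemp1, a membrane protein of mast cells and myeloid cells, of 0.41. Ptx3, a pentraxin stored in specific granules and picked here after its values were seen, stood at 43.8, 34.4, 25.1 and 23.3 CPM in NDEA 1 to 4, against 13.4, 10.9, 2.42 and 2.50 CPM in control 1 to 4. All 4 NDEA libraries were above all controls for Ptx3 (2.59 on the log2 scale, SE 0.58, adjusted p = 0.247 by limma-voom), as for 2.57% of all genes tested. For tertiary granule genes 3 of 4 estimates were above 0 (median 0.14), with Mmp9, gelatinase B, at 0.22, Cfp, properdin, at 0.06, and Pglyrp1, a peptidoglycan-binding protein, at -0.67.

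Of 19 listed genes of mature neutrophils, 14 were tested, 10 with an estimate below 0 (median log2 fold change -0.54). Picked after their values were seen, the chemokine receptors of late neutrophils were at or near 0: Cxcr1 had 0 counts in all marrow libraries, and Cxcr2 had 0 in all but control 1 and 4, with 3 and 6. Other genes of the list were detected in every marrow library, such as Alpl at 59.1 to 135 CPM. Whether the annotation covered the 3' ends of Cxcr1 and Cxcr2 was not tested, so their values are not read as a lack of expression. Mxd1, a MAX partner that rises as myeloid cells stop dividing, had a log2 fold change of -0.85, Retnlg, a resistin-like protein, of -0.87 and Alpl, alkaline phosphatase, of 0.31. Of 13 transcription factors of granulopoiesis, 4 estimates were above 0 and 9 below (median -0.33). Cebpe, the factor needed for specific granules, averaged 173 ± 16.0 CPM in NDEA and 144 ± 32.6 CPM in control marrow (SD, n = 4 each; limma-voom adjusted p = 0.569), while Runx1 and Cebpb had log2 fold changes of 0.47 and -0.02 (0.412 and 0.983). Of 7 tested genes of retention and release from marrow, Cxcr4, the receptor that holds neutrophils there, stood at 484, 465, 576 and 835 CPM in NDEA 1 to 4, against 381, 359, 437 and 426 CPM in control 1 to 4. All NDEA libraries were above the controls, as for 2.57% of all genes tested (log2 fold change 0.52, limma-voom adjusted p = 0.305). Its ligand Cxcl12 had a log2 fold change of -0.45 and Vcam1, an adhesion molecule of the niche, of -0.14.

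Fewer cells of a stage and less RNA per cell cannot be told apart in bulk marrow. Summed CPM of 12 monocyte and macrophage markers was 1060 to 1290 in NDEA and 981 to 1126 in control marrow; 0 of the 9 tested were called, and Marco and Vsig4 had 0 counts. Csf1r, the receptor of the monocyte growth factor, was picked after its values were seen and averaged 12.3 ± 2.90 CPM in NDEA and 42.7 ± 20.6 CPM in control marrow (SD, n = 4 each; log2 fold change -1.58, limma-voom adjusted p = 0.247). Summed CPM of 9 eosinophil, basophil and mast cell markers was 3400 to 6530 in NDEA and 4259 to 5013 in control, that of 11 erythroid genes 121300 to 160200 in NDEA and 134100 to 200300 in control, and that of 6 skeletal muscle genes 55.9 to 71.8 in NDEA and 130 to 498 in control. That of 8 megakaryocyte genes was 177 to 319 in NDEA and 373 to 701.5 in control, that of 10 T and NK cell genes 23.7 to 84.7 in NDEA and 64.8 to 169.9 in control, and that of 10 stromal and osteoblast genes 2621 to 5282 in NDEA and 3942 to 8941 in control. Sums of 10 B lineage genes were 410.2 to 746 in NDEA and 407 to 632 in control. Most of the erythroid sum was Hba-a1, which averaged 128700 CPM in NDEA and 163700 CPM in control marrow. Most of the eosinophil, basophil and mast cell sum was Prg2, at a mean of 4027 and 4023 CPM. These 2 sums thus follow mainly 1 gene each. Estimates were below 0 for 6 of 6 tested muscle genes and 6 of 6 megakaryocyte genes. The same held for 7 of 7 T and NK cell genes, 8 of 9 stromal genes and 8 of 11 erythroid genes. It held for 6 of 9 eosinophil, basophil and mast cell genes, 4 of 9 monocyte and macrophage genes and 1 of 6 B lineage genes. Over all genes tested, 5150 of 9239 estimates were below 0, and 0 genes were called. The muscle and megakaryocyte sums did not overlap between the groups, and 5.6% of all single genes tested did not overlap either. Control 3 was the highest library for the muscle genes Acta1, Tnnc2, Tnnt3, Ckm and Mylpf, and control 4 for Tnni2. Acta1, picked after its values were seen, stood at 10.7, 6.88, 13.7 and 10.1 CPM in NDEA 1 to 4. In control 1 to 4 it stood at 35.2, 42.3, 139.5 and 64.2 CPM, so NDEA 3 and 4 did not share the high value of control 3. Klrb1, Gzmb, Pax5 and Col1a2 had 0 counts in all marrow libraries. The part of these cell types in the member values was not tested.

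Genes whose marrow pattern lay closest to a stage were taken from 3397 genes with a mean of at least 32 CPM, by the root mean square difference of log2 CPM centred over the 8 marrow libraries. Closest to the mean of the primary members were Ugp2, Csrp1 and Plbd1 (0.14, 0.15 and 0.16, where the SD of the stage mean itself was 0.55). Closest to the late members were Chd3, Hebp1 and H2afy (0.08, 0.09 and 0.10, SD 0.34), and to the secondary members Plekhj1, Ppp1r14b and Deaf1 (0.19, 0.21 and 0.21, SD 0.42). The values describe these 8 libraries, which differed in depth and mitochondrial share, and carry no test.

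In liver, the granule genes were at or near the floor in both groups. Mpo, Elane, Prtn3, Ctsg and Ltf had 0 counts in all 8 liver libraries. Against a floor of 3 counts over a liver group, Mpo in marrow was at least 4090-fold higher than in liver with NDEA and at least 4620-fold higher in controls, and Ctsg at least 400.0-fold and 866-fold, in CPM of all counts. Camp had 0 counts in liver NDEA and 4 in liver control, all in 1 library. Mmp8 had 6 counts in liver NDEA and 1 in liver control, and Lcn2 6 and 3; Lcn2 is known as an acute phase gene of hepatocytes under inflammation, and stood here at 0.798 CPM or less in every liver library.

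Only S100a8 and S100a9 had enough liver counts to be tested. S100a8 stood at 5.35, 9.68, 0.141 and 8.09 scaled CPM in liver NDEA 1 to 4, against 5.00, 8.58, 9.20 and 3.69 CPM in liver control 1 to 4. A single library, NDEA 3, was far below the others and the groups overlapped. The estimate was -1.21 on the log2 scale (SE 0.87, adjusted p = 0.492 by limma-voom), and 0.25 without NDEA 3. S100a9 stood at 1.68, 3.80, 2.39 and 0 CPM in liver NDEA 1 to 4, against 2.97, 7.00, 2.16 and 0.369 CPM in liver control 1 to 4. The estimate for S100a9 was -1.16 (SE 1.33, adjusted p = 0.699 by limma-voom), and 0.15 without NDEA 4. Thus 0 of 2 tested members were called in liver, beside a background of 6.61% of 9668 genes (2.87% higher and 3.74% lower); at an unadjusted p under 0.05 there were also 0, where the background was 18.7%.

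The marrow and liver effects were compared in a fit of all 16 libraries, where 2.28% of 11261 genes were called (0.213% higher and 2.07% lower). That fit had no term for rat or cage and took the 16 libraries as independent, though the tissues may share rats. Only S100a8 and S100a9 had enough liver counts for this comparison, and they were not called. For S100a8 the marrow effect minus the liver effect was 1.26 on the log2 scale (SE 1.26, 95% interval -1.34 to 3.86; limma-voom adjusted p = 0.664), and for S100a9 0.52 (SE 1.58, interval -2.75 to 3.79; 0.914). For Mpo, Elane, Prtn3 and Ctsg a liver effect could not be measured, since there were no liver counts, and for Camp, Lcn2 and Mmp8 it rests on 4 to 9 counts. These members entered the fit through their marrow counts, so that they were not called there is not read as a like effect in both tissues.

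Of the listed companions, 3 were called in liver, beside 6.61% of all genes tested there. They were Irf8 of 10 tested granulopoiesis factors, G0s2 of 6 tested genes of mature neutrophils and Cxcl12 of 5 tested genes of retention and release. Of the companions of the primary, secondary and tertiary granules, 4, 5 and 2 were tested in liver and 0 were called. Irf8, a factor of monocyte and macrophage fate, rose, at 60.2, 77.8, 60.6 and 83.3 CPM in liver NDEA 1 to 4, against 47.5, 31.3, 38.8 and 24.9 CPM in liver control 1 to 4 (log2 fold change 0.98, limma-voom adjusted p = 0.00548). G0s2, a regulator of lipolysis that hepatocytes also express, fell (-0.996, adjusted p = 0.00307). Cxcl12 fell, at 115, 112, 76.7 and 85.1 CPM in liver NDEA, against 278, 207, 261 and 327 CPM in liver control (-1.48, adjusted p = 1.11e-06). Groups did not overlap in any of the 3, as for 12.5% of all genes tested in liver (6.54% higher and 5.98% lower). In marrow the estimate for Irf8 was below 0, at -1.34 (limma-voom adjusted p = 0.28), and so was that for G0s2, at -1.46 (0.278). Irf8 stood there at 68.4, 49.5, 47.2 and 6.13 CPM in NDEA 1 to 4, against 41.1, 131, 65.5 and 89.0 CPM in control 1 to 4.

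**Figure D5:**
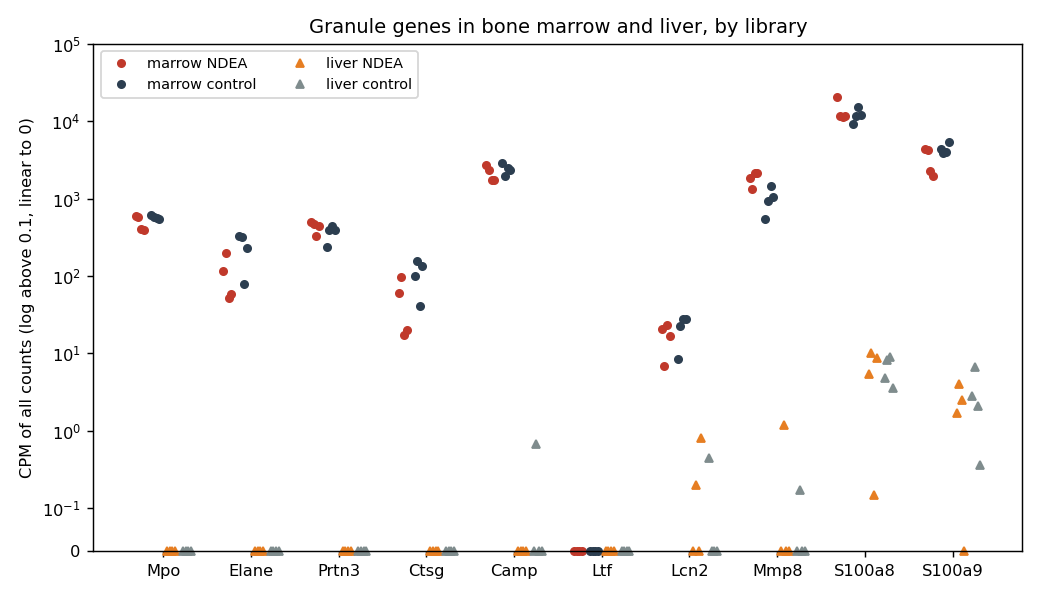
CPM of all counts of the 10 granule genes in each library of marrow NDEA, marrow control, liver NDEA and liver control; the axis is logarithmic above 0.1 and linear to 0. Marrow libraries lie between 6.84 and 20580 CPM for the 9 detected genes, while liver libraries are at 0 for Mpo, Elane, Prtn3, Ctsg and Ltf and at 10.2 CPM or less for the rest.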

How the data were processed

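RNA was measured in 16 libraries of liver and bone marrow. Libraries were made with a QuantSeq 3' kit, per the labels' protocols; The submitters' processing notes name STAR and DESeq2 without role or version. Counter, genome build and annotation: not given in the sources used here. The values are whole read counts per gene as the authors deposited them, so unnormalized; 12 broken lines were rejoined, giving 32623 gene records, and group totals in 16313 records matched the sums. The count columns were recorded under another unit because of the broken lines, so limma-voom was the planned main test.

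Each tissue had its own fit, of treatment only (R 4.3.3, limma 3.58.1). Genes were tested that held at least 15 counts in all and, in 4 or more libraries, the CPM equal to 10 counts at median depth. Scaling was by trimmed means (trims 0.3 and 0.05), fold changes used a prior of 0.5 counts, and calls were made at an adjusted p under 0.05. The steps were run on simulated counts with the same spread setting for every gene and no differences between libraries of a tissue beyond depth and treatment. The simulation therefore does not bear on power or error in these marrow libraries. Intervals and floors cover these libraries and counting error only, since the labels name no molecular identifiers.

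Members and gene lists were chosen with earlier results of these data known. The rule for named genes took all members, the 3 companions of each list with the highest mean CPM in marrow, every companion called, and the 3 genes closest in pattern to each stage.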

Additional observations from a re-analysis of the deposited data

Results flagged for a closer look

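S100a8 in marrow NDEA library 1 stood at 20960 scaled CPM, far from the other 3 libraries of its group, which lay at 11300 to 12440. Its gap to the nearest of them was 0.882 of the group's range, above Dixon's 95% critical value for 4 samples. Of 22 sets of 4 libraries examined, each with at least 10 counts, 1 stood out in this way, and chance alone gives about 1 in 20.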

How the results depend on the processing

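Over the alternatives, 0 members were called in liver and 0 in the tissue difference, as with the settings used. For both, only S100a8 and S100a9 had enough liver counts to be compared. In marrow 0 members were called except with the replicate block (3: Mmp8 at 0.996, Ctsg at -1.26, Elane at -1.16) and without control 3, so that leaving out 1 library gave 0 to 3. Same-numbered marrow libraries deviated together by correlations of -0.005 to 0.062 across genes, so the numbers were not taken to pair them; in marrow NDEA 1 and 3 and in liver NDEA 4 the best match was the control of the same number. All genes called in marrow numbered 0 as reported, 2 without the filter, 69 with all 16 libraries in one fit, 289 with the block, 1 with the mitochondrial share as a covariate, 45 without marrow control 3 and NDEA 3 and 4, and 0 to 323 with 1 library left out. With that covariate 148 genes were called in liver against 639, and 407 in the tissue difference against 257, where 1 library left out gave 107 (without liver control 4) to 547 (without marrow control 3), with 162 without liver control 3 and 171 without marrow control 2. Scaling by library totals moved the liver calls to 390 higher and 239 lower, against 277 and 362. Liver counts were 441 to 600 with 1 library left out.

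The primary median of -0.67 was -0.157 with the mitochondrial covariate and -0.164 without marrow NDEA 3 and 4. Signs turned for Camp with quality weights (0.006), without marrow NDEA 3 and 4 (0.057) and without these and control 3 (0.105), for Mpo without these 2 and without these 3 libraries (0.026 and 0.049), and for S100a8 in liver with the replicate block (0.066). With 1 library left out, the range for S100a8 in marrow crossed 0, at -0.012 to 0.361, and the late median had the same range. The other ranges that crossed 0 were -1.757 to 0.253 for S100a8 and -1.852 to 0.145 for S100a9 in liver. Those of their tissue differences did too, at -0.07 to 1.746 and -0.749 to 1.311. The cause of these changes was not tested. In liver 8 members had at most 9 counts over its 8 libraries, so differences in them were not detectable at this depth.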
